A study of Ovis aries with 7 samples.

Results

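The red cell genes HBB, AHSP and CA1 were followed array by array in the hypothalamus of late-gestation fetal sheep. HBB encodes the adult beta chain of haemoglobin, AHSP a chaperone that binds free alpha globin until it pairs with beta globin, and CA1 the carbonic anhydrase of the red cell cytosol. All probes that the array files name for these 3 genes were taken, which gave 6 of the 15008 probes on the array, 2 for each gene. They were chosen as a measure of the blood left in the tissue, since red cells make far more of these transcripts than neurons or glia do.

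Each array held the hypothalamic RNA of 1 chronically catheterized fetus, labelled with Cy3 on a 1-colour Agilent sheep array. The hypoxia group was 3 fetuses exposed to maternal ventilatory hypoxia for 30 min, in which the ewe breathes gas low in oxygen, and then to normoxia for 30 min, with tissue taken 60 min after onset. The control group was 4 age-matched fetuses kept in normoxia throughout the same times. The labels give RNA integrity numbers of 7.4 to 8.4 and do not say whether any fetuses were twins or whether the tissue was flushed of blood. A level is given as the log2 of the processed spot intensity minus the 75th percentile of that array, so that 0 is the signal below which 75% of spots lay. Between 77.3% and 86.4% of probes were well above background per array, and the number of arrays limits the precision. Slide 1 held the hypoxia arrays, slide 2 held controls 1 and 2, and slide 3 held controls 3 and 4, so slide and group cannot be told apart. Of the 28 hypothalamic marker genes listed, 14 had a named probe, and all 14 were measured, oxytocin (OXT) and POMC among them. No gene of the neuron and oligodendrocyte lists had a named probe.

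Haemoglobin is a tetramer of alpha-type and beta-type chains, and the beta-type chain changes in development from embryonic to fetal to adult forms. Late in gestation the sheep fetus switches from fetal to adult beta globin, and domestic sheep carry more than 1 adult beta globin haplotype, with differing sets of beta-type genes. The young red cells that carry most globin messenger RNA are reticulocytes, which lose AHSP and other transcripts as they mature. CA1 appears late in red cell development and is low in fetal cells.

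The probe sequences are shown because the 2 HBB probes did not follow each other, while the 2 AHSP probes did. Lower case letters are bases as spotted, 5′ to 3′, and a capital marks the base of an AHSP probe that the other AHSP probe does not hold. The HBB coding probe lies in the coding sequence, from base 226 of the transcript, and the files list a second beta globin transcript (HBBC) that it also matches. The HBB cDNA probe starts at base 559 of a cDNA from adult sheep fracture callus that the files assign to HBB, and its first 30 bases are given. A probe described in the files as the fetal beta subunit of haemoglobin is no member of the set and is shown, by its first 30 bases, because it is read beside HBB below.
HBB coding probe: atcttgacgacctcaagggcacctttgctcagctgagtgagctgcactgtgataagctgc
HBB cDNA probe: gcatctggcctctgcttaatatagacactt
AHSP probe 1: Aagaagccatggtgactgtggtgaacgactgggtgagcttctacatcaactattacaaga
AHSP probe 2: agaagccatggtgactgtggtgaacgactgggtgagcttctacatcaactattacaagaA
Fetal beta probe: aaagtccaggtttgcagaaaggacacaact
The AHSP probes shared 59 of their 60 bases and are close to a repeat measurement of 1 target. Apart from that pair, no probe of HBB, AHSP or CA1 shared a run of 16 bases with any other probe on the array. HBB and HBBC are close copies of each other, so the coding probe cannot be assigned to 1 of them. The files name no genome build and give no mapped position for these probes. In the gene order of the ARS-UI_Ramb_v3.0 annotation, 3 genes are listed between HBBC and HBB.

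HBB was bright on all arrays and differed more between control fetuses than between the groups. On the coding probe, the processed intensity was 33308, 38166 and 30857 in hypoxia replicates 1 to 3. In control replicates 1 to 4 it was 15846, 8240, 16374 and 87357. The brightest array was therefore a control and so were the 3 dimmest, and the hypoxia arrays lay between them. The intensities spanned a 10.6-fold range in the controls and a 1.24-fold range in the hypoxia arrays, and the levels scaled to the 75th percentile 9.04-fold and 1.35-fold. The number of red cells in the tissue and the RNA in each red cell cannot be told apart in such values. The level was 3.84 ± 0.24 (SD, n = 3) after hypoxia and 3.17 ± 1.41 (SD, n = 4) in controls. The difference of 0.67 (SE 0.69, 95% interval -0.94 to 2.29), or 1.59-fold, did not pass the test (limma, adjusted p = 0.66). Over the alternative settings the adjusted p lay between 0.115 and 0.997. Without control replicate 4 the difference was 1.35 (adjusted p = 0.159), and without control replicate 2 it was 0.29. Against the controls of slide 2 alone (replicates 1 and 2) it was 1.35, and against those of slide 3 alone (replicates 3 and 4) it was -0.01.

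The spread of HBB was unusual for these arrays, but on the coding probe only among the controls. Its control SD there was reached by 1.16% of tested probes and its hypoxia SD by 29.5%. Control replicate 4 stood at 5.20 and the other controls between 2.03 and 2.94. On the cDNA probe the shares were 0.212% and 0.858%. The pooled SD within groups was 1.1 on the coding probe, against a median of 0.20 over the 12711 tested probes, and 1.58% of tested probes had one as large. On the cDNA probe it was 1.86, and 0.27% of tested probes reached that. Saturation did not set the top of the range: the highest mean signal of an HBB spot was 73812, against a lowest saturation value of 650260.

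**Figure D1:**
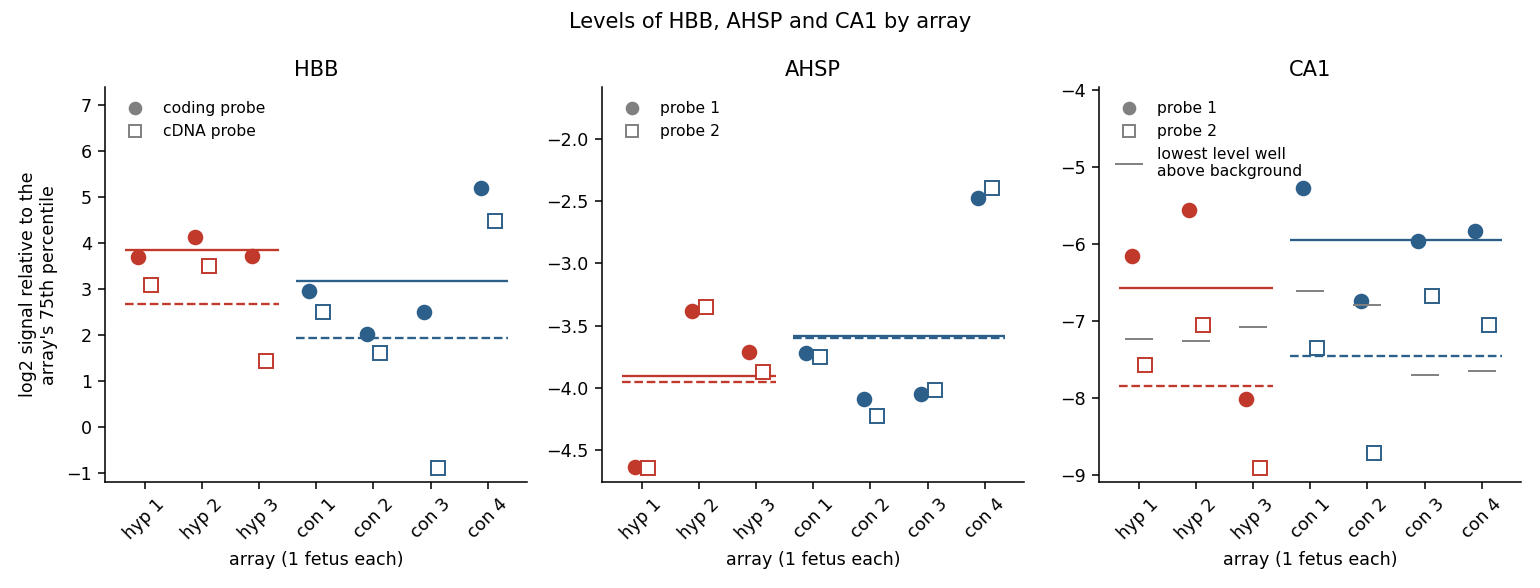
Level of each probe of HBB, AHSP and CA1 (log2 signal relative to the array's 75th percentile) on 3 hypoxia arrays (red) and 4 control arrays (blue), with 1 fetus per array, filled circles for the first and open squares for the second probe of a gene, and lines at the group means (solid for the first probe, dashed for the second). Control replicate 4 is highest for HBB and AHSP but not for CA1, and grey bars in the CA1 panel give the lowest level well above background on each array.

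The HBB cDNA probe gave a different order of the arrays. Its intensity was 22053, 24732 and 6317 in hypoxia replicates 1 to 3, and 11616, 6193, 1563 and 52734 in control replicates 1 to 4. Control replicate 3 was the dimmest array and control replicate 4 the brightest, 33.7-fold apart in intensity and 41.3-fold apart in scaled level. The level was 2.67 ± 1.09 (SD, n = 3) after hypoxia and 1.92 ± 2.23 (SD, n = 4) in controls, a difference of 0.75 (SE 1.16; limma, adjusted p = 0.78). The sign turned to -0.19 without control replicate 3, and the difference was 1.60 without control replicate 4.

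Probes differ in how well they bind, so only the change of a probe difference from array to array is read here. The cDNA probe minus the coding probe was -0.59, -0.63 and -2.29 in hypoxia replicates 1 to 3, and -0.45, -0.41, -3.39 and -0.73 in control replicates 1 to 4. Hypoxia replicate 3 and control replicate 3 thus lay apart from the other 5 arrays, which stayed between -0.73 and -0.41. The range of 2.98 on the log2 scale, or 7.87-fold, compares with 0.24 for the AHSP pair. Among 407 pairs of probes of the same gene (352 genes) that were well above background on all 7 arrays, it was the widest, with a median of 0.38, and 38 pairs varied by more than 1. The next widest range was 2.60, for the mitochondrial ATP synthase gene ATP5MC1.

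Relative to HBB, the fetal beta probe stood out on the same arrays, while its own signal was highest in control replicate 4. Its intensity was 128, 150 and 529 in hypoxia replicates 1 to 3, and 62.1, 37.8, 298 and 754 in control replicates 1 to 4. Relative to the HBB coding probe it was -8.03, -7.99 and -5.87 in the hypoxia replicates, and -8.00, -7.77, -5.78 and -6.86 in the controls. The highest relative values were those of control replicate 3 and hypoxia replicate 3, followed by control replicate 4. Relative to the HBB cDNA probe it was -7.43, -7.36 and -3.58 after hypoxia, and -7.55, -7.36, -2.39 and -6.13 in controls. The same arrays were highest, but these values contain the difference between the HBB probes given above. They are therefore no separate reading of the replicate 3 arrays. Hypoxia and control replicates 3 carry the same replicate number but lay on different slides. These 2 arrays were picked out from their values, so no test was made of them. The fetal beta level differed by 0.48 between hypoxia and control (SE 1.00; limma, adjusted p = 0.84), with a sign that turned to -0.98 against control replicates 3 and 4 alone, to -0.17 without hypoxia replicate 3 and to -0.12 without control replicate 2.

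**Figure D2:**
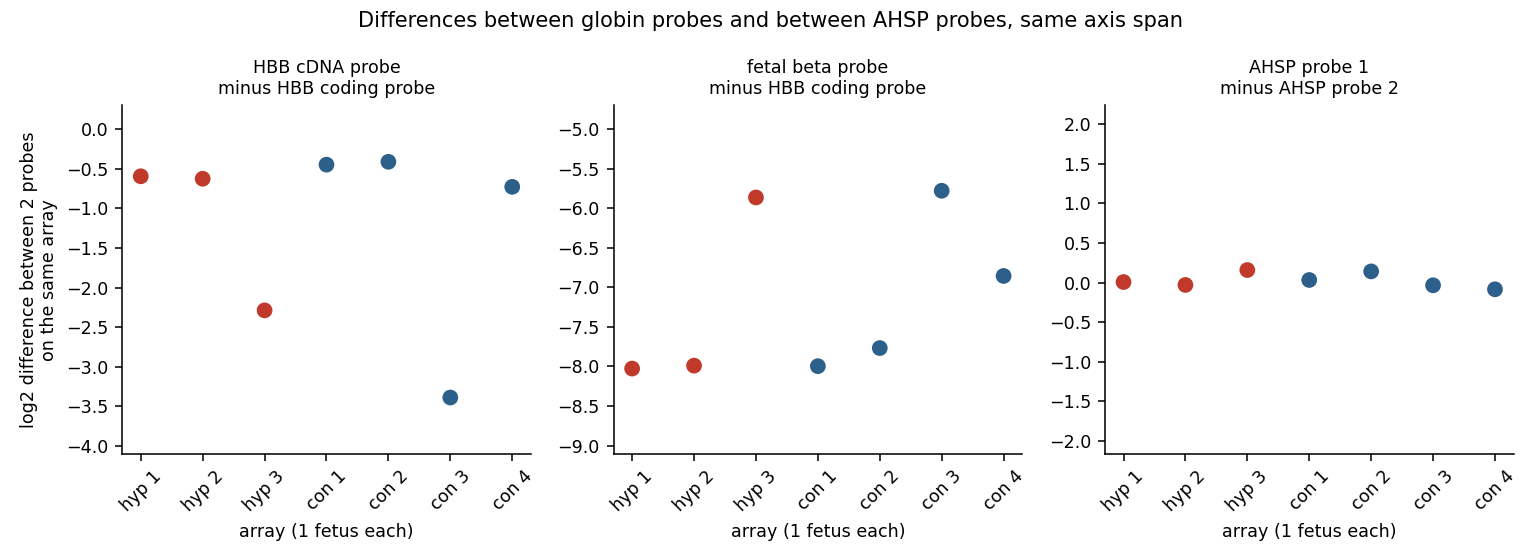
Difference in log2 level between probes on the same array, for the HBB cDNA and coding probes (left), the fetal beta and HBB coding probes (middle) and the AHSP probes (right), with hypoxia arrays in red and control arrays in blue and the same axis span in each panel. Hypoxia replicate 3 and control replicate 3 lie at -2.29 and -3.39 in the left panel and at -5.87 and -5.78 in the middle one, while the AHSP pair stays within 0.16 of 0.

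AHSP was dim but well above background on all 7 arrays. On probe 1 the intensity was 104, 211 and 179 in hypoxia replicates 1 to 3, and 157, 119, 175 and 428 in control replicates 1 to 4. Control replicate 4 was again the brightest array, and hypoxia replicate 1, the third brightest for HBB by intensity, was the dimmest. The level was -3.91 ± 0.65 (SD, n = 3) after hypoxia and -3.58 ± 0.76 (SD, n = 4) in controls. The difference of -0.33 (SE 0.46, 95% interval -1.39 to 0.74) did not pass the test (limma, adjusted p = 0.75). Over the alternative settings the adjusted p lay between 0.643 and 0.996, and the difference turned to 0.04 without control replicate 4 and also to 0.04 without hypoxia replicate 1. Probe 2 gave -0.36 (SE 0.48; limma, adjusted p = 0.74).

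CA1 was at the edge of detection. Probe 1 was well above background on 2 of 3 hypoxia and 3 of 4 control arrays, and missed it on hypoxia replicate 3 and control replicate 2. Its intensity was 36.5, 46.6 and 9.14 in hypoxia replicates 1 to 3, and 53.7, 18.9, 46.8 and 41.9 in control replicates 1 to 4, where the lowest signal well above background lay between 11.9 and 21.3 per array. The brightest array for HBB and AHSP, control replicate 4, was thus the third brightest control for CA1 by intensity. By scaled level it stood at -5.83, above control replicate 3 at -5.96. The level was -6.57 ± 1.28 (SD, n = 3) after hypoxia and -5.95 ± 0.61 (SD, n = 4) in controls. The difference of -0.63 (SE 0.59, 95% interval -2.0 to 0.75) did not pass the test (limma, adjusted p = 0.63), nor did it under any of the alternatives (0.491 to 0.954). With normexp background correction, which acts most on dim probes, the difference was -0.07. It turned to 0.09 without hypoxia replicate 3. Probe 2 was well above background on 2 of 4 controls (replicates 3 and 4) and on none of the 3 hypoxia arrays, and was not tested. Its intensity was 13.7, 16.7 and 4.91 after hypoxia, and 12.7, 4.82, 28.5 and 17.9 in controls, so the groups overlapped and no fold is given.

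Of the 5 tested probes of HBB, AHSP and CA1, 0 passed an adjusted p of 0.05 in limma, where 0.0157% of all tested probes did. At an unadjusted p of 0.05 it was again 0, against 15.7% of all tested probes. That count depended on the controls used: the HBB coding probe had an unadjusted limma p of 0.0013 without control replicate 4 and of 0.0050 against control replicates 1 and 2 alone. Hypoxia and control arrays overlapped for each of the 5, whereas they did not overlap for 16.2% of tested probes. The exact permutation test over the 7 arrays (two-sided, smallest possible p 0.057) gave p = 0.46 for HBB, 0.69 for AHSP and 0.51 for CA1, and 0.69 for each after adjustment over the 3. The intervals left room for changes of HBB from 0.520-fold to 4.88-fold.

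**Figure D3:**
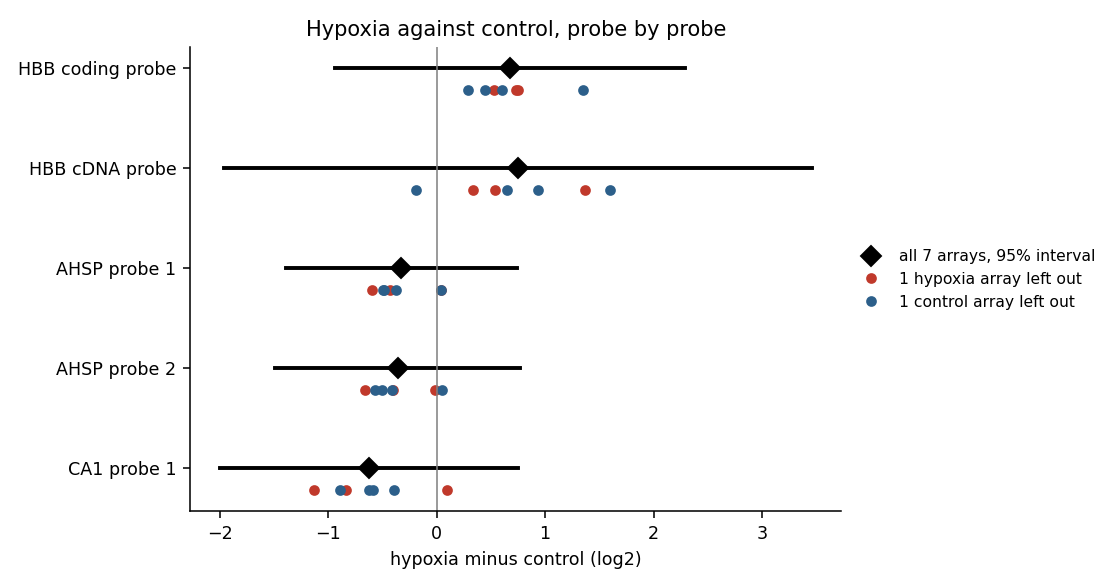
Hypoxia minus control (log2) for the 5 tested probes, with a diamond and a line for the estimate and 95% interval from all 7 arrays, and dots for the estimate with 1 hypoxia array (red) or 1 control array (blue) left out. All intervals include 0, and HBB ranges from 0.29 to 1.35 with 1 array left out.

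HBB and AHSP followed each other only in part. Over the 7 arrays Pearson's r was 0.70 (exact permutation p = 0.087, adjusted over 3 pairs 0.26) and Spearman's rho 0.79 (p = 0.048, adjusted 0.14). Leaving out the arrays farthest from the median of HBB, control replicates 2 and 4, brought r to 0.22, and of the pair it was control replicate 4 that carried the drop: without it alone r was 0.28, and without control replicate 2 alone 0.71. Without hypoxia replicate 1, the array farthest off the line of the others, r was 0.94, and only there did the adjusted exact permutation p (0.0083) pass, against 0.275 to 0.986 with another array left out. As that array stands out by its own values, the lower p adds no support. After each group's mean was subtracted, r was 0.86 (exact permutation p = 0.019, adjusted 0.058), and 0.70 without control replicates 2 and 4. The HBB coding probe minus AHSP probe 1 was 8.32, 7.5 and 7.43 in hypoxia replicates 1 to 3 and 6.66, 6.11, 6.55 and 7.67 in control replicates 1 to 4. Its mean was 7.75 ± 0.50 (SD, n = 3) after hypoxia and 6.75 ± 0.66 (SD, n = 4) in controls, with control replicate 4 inside the range of the hypoxia arrays. CA1 did not follow either: r was 0.12 with HBB (exact permutation p = 0.83) and 0.20 with AHSP (p = 0.68), where 2 of the 7 CA1 values were not well above background.

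**Figure D4:**
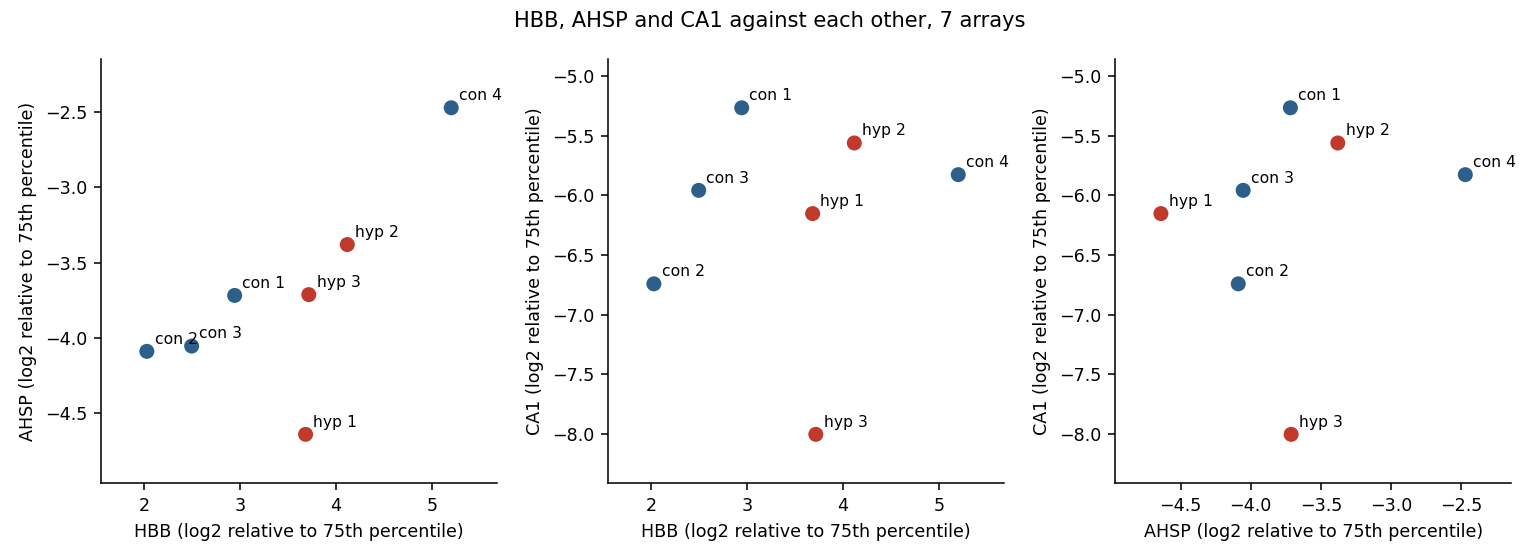
Levels of HBB (coding probe), AHSP (probe 1) and CA1 (probe 1) plotted against each other in log2 relative to the array's 75th percentile, 1 point per array with hypoxia (hyp) in red and control (con) in blue. Control replicate 4 is at the top right for HBB and AHSP, hypoxia replicate 1 lies below the other arrays there, and hypoxia replicate 3 is lowest for CA1.

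The rest of the red cell programme was thinly represented among the named probes, so HBB, AHSP and CA1 stand almost alone for it here. Of the 15008 probes, 13418 were given no gene name, so further red cell genes may be on the array without a name. Of 42 genes listed for red cell development, 1 had a named probe: the erythropoietin receptor EPOR, with a difference of 0.24 (SE 0.17; limma, adjusted p = 0.51). Besides HBB and the fetal beta probe described above, 2 globins were measured. They were the muscle oxygen store myoglobin (MB), at 0.09, and cytoglobin (CYGB), a globin of fibroblasts and neurons, at -0.16. The one other carbonic anhydrase with a named probe was CA11, a brain protein of that family without the enzyme's activity, at -0.14. In haem synthesis the enzyme UROD was at -0.07 and the mitochondrial glycine carrier SLC25A38 at 0.04, and none of these genes passed the test. Among the 4 measured iron genes, ferritin heavy chain (FTH1) was at 0.16, transferrin (TF) at 0.26, ceruloplasmin (CP) at -0.02 and lactoferrin (LTF), an iron-binding protein of neutrophil granules, at -1.23. None passed an adjusted p of 0.05. Under quantile normalization MB stood at -0.01 and FTH1 at 0.00, so their direction is not settled.

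Of the hormones and receptors that drive red cell production, EPO itself was not well above background on any array with either of its probes. KITLG, the stem cell factor that acts on red cell precursors and also on neurons and mast cells, was the largest difference of the 4 measured. Its level was -2.97, -2.53 and -2.52 in hypoxia replicates 1 to 3 and -3.86, -3.96, -4.22 and -4.56 in control replicates 1 to 4. All hypoxia arrays thus lay above all controls, where 16.2% of all tested probes had groups without overlap. The difference of 1.48 (SE 0.20) had a limma adjusted p of 0.085, and between 0.023 and 0.29 over the alternatives. A second probe of KITLG, well above background on 4 arrays, gave 2.11 (SE 0.40; limma, adjusted p = 0.12). Its receptor KIT was at -0.05 and STAT5A, a transcription factor of the erythropoietin pathway, at -0.32. Over all tested probes the median difference was 0.03, and 54.7% were higher after hypoxia.

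By the rule of likeness across the 7 arrays, the named gene with the pattern nearest to HBB was UGT1A9 (r = 0.97), an enzyme that couples small molecules to glucuronic acid. PTGS2, the inducible cyclooxygenase, followed (0.95), then BMP6 (0.94), the interferon-induced ISG15 (0.92) and RHOBTB2 (0.92). At the other end were the glutamate transporter EAAT3 (-0.93), the zinc transporter SLC39A3 (-0.91) and the cholesterol enzyme SQLE (-0.88). On the deposited values without scaling between arrays these were -0.48, -0.29 and -0.35. Likeness was taken for the probe of a gene with the most extreme r, and a second probe gave 0.88 for UGT1A9, 0.87 for BMP6, -0.84 for EAAT3 and -0.23 for SQLE. These are extremes among 835 named genes over 7 values each and are given as a description.

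For AHSP the nearest were tie2, the endothelial receptor also called TEK (0.94), FTH1 (0.92), COL6A1 (0.90), ASIP (0.89) and CLDN1 (0.86). The lowest were OXT (-0.91), the thyrotropin-releasing hormone receptor TRHR (-0.91) and ARF1 (-0.86). Control replicate 4 carried much of this, and without it r was 0.69 for COL6A1, 0.68 for ASIP, -0.72 for OXT and -0.51 for ARF1. The tie2 probe was well above background on 3 of 7 arrays and that of COL6A1 on 4. Other probes of FTH1 gave 0.62 and 0.51, and another probe of CLDN1 gave -0.06, so those likenesses held for 1 probe only. CA1 had other neighbours, with GNG11 (0.92), CHCHD3 (0.91), the blood-brain barrier pump ABCB1 (0.87), IGFBP3 (0.86) and IRF3 (0.84) nearest. YWHAE (-0.98) and LEF-1 (-0.91) were among the lowest. Hypoxia replicate 3, where CA1 was not well above background, carried part of this: without it r was 0.70 for GNG11, 0.72 for CHCHD3 and 0.56 for IRF3. With normexp background correction CHCHD3 was at 0.41, LEF-1 at -0.53 and, for AHSP, tie2 at 0.49. On the deposited values without scaling between arrays, r with AHSP was 0.48 for FTH1, -0.65 for TRHR and -0.47 for ARF1. It stayed at 0.92 for COL6A1 and -0.94 for OXT. With CA1 it was then 0.53 for CHCHD3 and -0.54 for YWHAE, and stayed at 0.89 for GNG11.

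Control replicate 4, the array with most HBB and AHSP, differed from the other controls in single genes of the tissue lists but not in 1 direction. OXT, the oxytocin precursor made by hypothalamic neurons, stood at -1.12 there and between 1.84 and 2.57 on the other controls. Prolactin (PRL), a pituitary hormone, stood at 1.13 there and between -3.80 and -3.46 on the other controls. Among other hypothalamic genes NPY (2.13), POMC (1.99), CRHBP (0.66), NPVF (0.41) and GAL (0.14) were highest of the controls there. So were TAC1 (2.12), AGRP (-0.53), GHRH (-1.20) and NR5A1 (-6.59). TAC3 (-2.49) and GNRH1 (-6.20) were, like OXT, lowest of the controls there. The pituitary genes CGA (-2.50) and LHB (2.31) did not stand apart. These genes were picked after their values were seen. The mean of the 14 measured hypothalamic genes was 0.11 on control replicate 4 and between -0.36 and 0.21 on the other controls. The mean of the 5 measured pituitary genes was 0.95 against -1.18 to 0.56. The part of tissue composition in the HBB and AHSP levels was not tested.

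HBB and AHSP were combined into 1 red cell level, the mean of their deviations from their own means, to ask which other probes moved with it within the groups. It was -0.34, 0.50 and 0.14 in hypoxia replicates 1 to 3 and -0.25, -0.90, -0.65 and 1.5 in control replicates 1 to 4. CA1 stayed out because it was not well above background on all arrays. Of 12706 other probes, 0 passed an adjusted p of 0.05 for the slope in limma (0% called), and 673 had an unadjusted p under 0.05, which is 5.3%. The smallest adjusted p was 0.29. Of the 673, 479 had a positive and 194 a negative slope. Without control replicate 4 there were 419 such probes, of which 77 were among the 673.

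The 6 named genes of smallest p with a positive slope are given first, each by its probe of smallest p. COL6A1 had 1.40 log2 units per unit of red cell level (SE 0.18). Its probe carries that symbol but is described as an alpha 3 chain of type VI collagen, so which chain it measures is uncertain. PTGS2 had 0.93, UGT1A9 0.80, the decoy receptor TNFRSF11B 0.57, ASIP 0.56 and BMP6 0.52. The 6 with a negative slope were OXT at -1.48 (SE 0.16), with VEGFR-1 at -0.72, AREG at -0.48, PAX6 at -0.36, CD1D at -0.26 and EAAT3 at -0.24. Leaving out control replicate 4 moved COL6A1 to 0.81, UGT1A9 to 0.46, ASIP to 0.31, TNFRSF11B to 0.14, CD1D to -0.12, PAX6 to -0.24 and VEGFR-1 to -0.02. OXT was then at -1.26, PTGS2 at 0.80, AREG at -0.54, BMP6 at 0.54 and EAAT3 at -0.34. COL6A1 was well above background on 4 and VEGFR-1 on 3 of the 7 arrays, so their slopes rest in part on values not above background. Second probes of some genes turned sign without control replicate 4. They went from 0.67 to -1.18 for TNFRSF11B, from 0.46 to -0.13 for UGT1A9 and from -0.14 to 0.38 for VEGFR-1. Second probes of ASIP, BMP6, CD1D, EAAT3, OXT and PAX6 kept their sign.

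The comparison of hypoxia with control was also fitted with the red cell level as a covariate. The number of probes past an adjusted p of 0.05 went from 2 to 0 (limma, smallest adjusted p 0.052). The size and direction of that change depended on the processing, as given at the end. By the unadjusted p, 1857 probes (14.6%) were under 0.05, against 1990 without the covariate, and 1677 were in both sets. Most of the probes with a low unadjusted p were therefore the same with and without HBB and AHSP in the fit. That could hardly have come out otherwise. HBB and AHSP differed between the groups in opposite directions (0.67 and -0.33). The red cell level that averages them lay between -0.34 and 0.50 after hypoxia and between -0.90 and 1.5 in controls. The part of blood content in the hypoxia differences was not tested.

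Red cells were set beside the markers of other blood and vessel cells, as the mean deviation of each list per array. The neutrophil list, with 6 measured genes of 27, stood at -1.96, -1.63 and 0.19 in hypoxia replicates 1 to 3 and at 0.43, 0.36, 1.72 and 0.88 in control replicates 1 to 4. It was lower on each hypoxia array than on any control, unlike the red cell level. Of its 6 genes 5 were lower and 1 was higher after hypoxia, with a median of -1.89. None passed an adjusted p of 0.05, and 5 had an unadjusted p under 0.05, against 15.7% of all tested probes. However, 4 of the 6 genes are cathelicidins, close relatives of each other, so the 5 cannot be read as independent genes. The gene that was higher, MMP9 (0.80), was well above background on 3 of the 7 arrays.

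The leading genes of that list, chosen after their values were seen, were cathelicidins, the antimicrobial peptides of neutrophil granules. CATHL1B was at -5.24, -5.75 and -1.79 in hypoxia replicates 1 to 3 and at -1.05, -0.89, 0.91 and -0.79 in control replicates 1 to 4. Its difference was -3.81 (SE 0.96; limma, adjusted p = 0.18), and CATHL3 stood at -3.85 (SE 0.94; limma, adjusted p = 0.17). Over the alternatives the limma adjusted p lay between 0.0082 and 0.415 for CATHL1B and between 0.030 and 0.394 for CATHL3. Both passed only with both replicate 3 arrays left out, a choice made after the values were seen, so that pass is no support for either. The cathelicidin genes are close relatives, so their values are uncertain as single genes, although probes of different ones shared no run of 16 bases.

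The lymphocyte list had 3 of 6 measured genes higher and 3 lower (median 0.09), and the monocyte and microglia list 2 of 4 higher (median 0.01). For endothelium and pericytes 7 of 9 were lower (median -0.28), and the only measured gene of the platelet list, SELP, was well above background on 5 of 7 arrays and had a measured difference of -1.17 (SE 1.03). Outside blood and vessels, 8 of 8 genes of the meninges and fibroblast list were lower (median -0.59, 4 with an unadjusted p under 0.05) and 4 of 4 astrocyte genes were higher (median 0.48, 2 with an unadjusted p under 0.05). Over all tested probes, 54.7% were higher after hypoxia and 15.7% had an unadjusted limma p under 0.05. None of these genes passed an adjusted p of 0.05. The part of any of these cells in the HBB, AHSP and CA1 values was not tested.

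**Figure D5:**
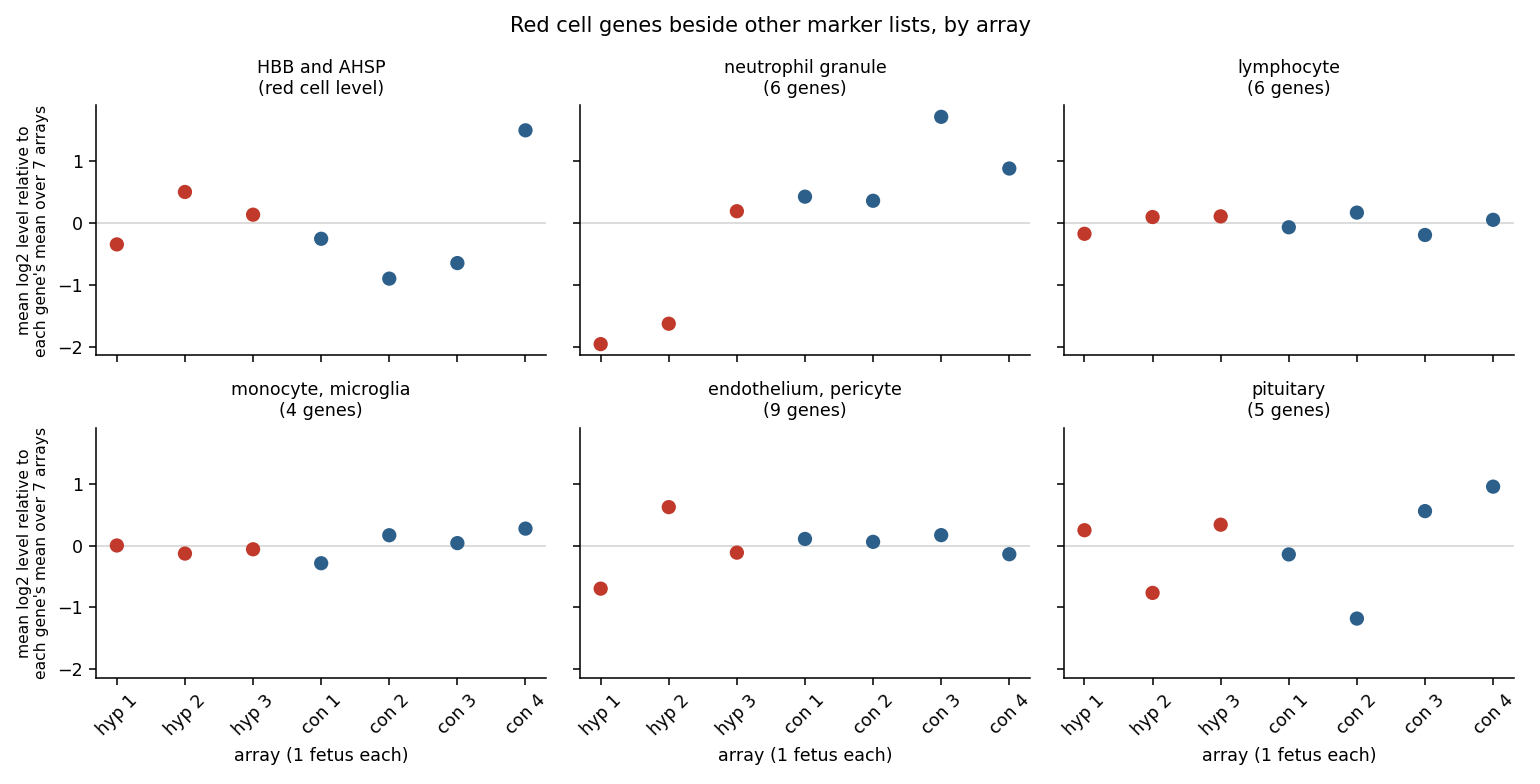
Mean log2 level, relative to each gene's own mean over 7 arrays, of HBB with AHSP and of 5 marker lists, per hypoxia array (red) and control array (blue). The red cell level is highest on control replicate 4 at 1.5, while the neutrophil list is lowest on hypoxia replicates 1 and 2, at -1.96 and -1.63.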

How the data were processed

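Spot intensity values were extracted from 1-colour scans with Agilent Feature Extraction 10.1.1.1, per the file headers. A deposited table of log2 values, taken from that processed intensity without scaling between arrays, served as an alternative. Groups and replicate numbers came from the sample titles. Control spots and 62 outlier spots were left out, spots of a probe were averaged, and the log2 processed intensity was centred on each array's 75th percentile. The 12711 of 15008 probes that 3 or more of the 7 arrays measured well above background were tested with limma 3.58.1 (R 4.3.3), two-sided, with Benjamini-Hochberg adjustment over all tested probes. The fit with the red cell level used group and that level as terms. Exact permutation tests used scipy 1.17.1. Scripts were tested on simulated data.

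The probes named were all those of HBB, AHSP and CA1, the 5 most and 3 least like genes for each, the measured genes of the globin, carbonic anhydrase and red cell lists, the 4 largest differences of the haem, iron and hormone lists, and the 6 named genes of smallest p on each side of the red cell fit. The members and the lists were chosen with earlier results of these data known. One gene that this rule picks is not reported here. The probe with the highest mean level stood for HBB, AHSP, CA1 and each listed gene, while likeness and slopes took a gene's probe of most extreme r or smallest p. Gene names came from the files and, where these give an accession or older name, from the RefSeq table of assembly ARS-UI_Ramb_v3.0. The labels give 1 fetus per array, so p-values set the group difference against the spread between these fetuses. Any difference between slides is part of that group difference and of the spread among the controls. Alternatives covered scaling, background correction, the filter, the slide, the replicate number and leaving out each array.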

Additional observations from a re-analysis of the deposited data

Results flagged for a closer look

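Among the 4 control arrays, 5 of 57 sets of values tested had 1 array far from the other 3 by Dixon's test, where chance gives 2.85 for sets chosen without regard to 1 array. The HBB cDNA probe minus the HBB coding probe was -3.39 in control replicate 3 and between -0.73 and -0.41 in the other controls. The cathelicidin CATHL1B was at 0.91 in control replicate 3 and between -1.05 and -0.79 in the others. In control replicate 4, the array with most HBB and AHSP, COL6A1 was at -4.00 against -7.50 to -6.91, TNFRSF11B at -2.45 against -3.87 to -3.65, and ASIP at 3.98 against 2.64 to 2.78. These 3 genes were named for their slope on the red cell level, which control replicate 4 dominates, so the chance number does not apply to them. All are log2 levels relative to the 75th percentile or differences of them. Groups of 3 were not tested in this way.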

How the results depend on the processing

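The differences of HBB, AHSP and CA1 between hypoxia and control passed the adjusted threshold under none of the alternatives run. With 1 array left out in turn, HBB ranged from 0.29 to 1.35, AHSP from -0.59 to 0.043 and CA1 from -1.13 to 0.091, and r of HBB with AHSP from 0.28 to 0.94, of HBB with CA1 from -0.043 to 0.41 and of AHSP with CA1 from 0.08 to 0.41. The count of probes that changed with the red cell level ranged from 0 to 1 and the count for hypoxia with that level in the fit from 0 to 5. That latter count, 0 in the report, was 2 with no red cell level, 17 with normexp background correction and 23 over probes well above background on all arrays. With no red cell level, the same normexp setting gave 10 and the same filter 25, so the count did not always fall with the covariate. The ranges with 1 array left out crossed 0 for the HBB cDNA probe (-0.19 to 1.60), AHSP probe 2 (-0.66 to 0.044), fetal beta (-0.17 to 1.24), CP (-0.47 to 0.44), KIT (-0.29 to 0.17), SLC25A38 (-0.054 to 0.17), CA11 (-0.26 to 0.0080) and MB (-0.016 to 0.22).

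Against control replicates 1 and 2 alone, HBB was at 1.35, AHSP probe 2 at 0.035 and SLC25A38 at -0.10. Against control replicates 3 and 4 alone, HBB was at -0.0092, fetal beta at -0.98, KIT at 0.16 and CYGB at 0.032. With both replicate 3 arrays left out, chosen after the data were seen, CA1 was at 0.088 and CP at 0.19. Quantile normalization put MB at -0.014 and FTH1 at -0.0037, normexp put KIT at 0.062, and the deposited unscaled values put CP at 0.017. With the red cell level taken from CA1 alone, the slopes of COL6A1 and VEGFR-1 were -0.063 and 0.044. The causes were not tested. Of 898 other comparisons of a named value with an alternative, 782 counted as the same. For a difference or slope this meant the same direction and side of the threshold. As none of these differences or slopes passed the threshold to begin with, the count says for them little beyond the sign. For an r it meant a move of at most the SD of its values with 1 array left out. For a count it meant a change within a fixed fold.

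Hypoxia and control replicates share numbers, with correlations of same-numbered deviations of 0.12, 0.09 and 0.11. Each hypoxia array correlated best with its own number, a hint from the data and not from the labels. With the replicate number as a block, HBB was at 1.35, AHSP at 0.043, AHSP probe 2 at 0.044 and SLC25A38 at -0.028, and the count of called probes went from 2 to 0. That fit leaves control replicate 4 without a partner, and its unadjusted limma p was 0.0063 for the HBB coding and 0.0083 for the HBB cDNA probe.

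The precision is limited by 7 arrays and, for CA1, by signals near background. Calls over all probes were few and moved with the setting, from 0 to 232, the latter against control replicates 1 and 2 alone.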
